A study of Mus musculus with 6 samples.

Results

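mmu-miR-122, the signature microRNA of the liver, and mmu-miR-192 and mmu-miR-215, a seed family of the gut and liver, all gave readings in sorted mouse osteoclasts, the cells that resorb bone. They are 3 of 709 miRNA assays on a real-time PCR array and 3 of the 95 assays (13.4%) that hold a value in every sample. The other 614 are Null throughout. The members were taken by name from the deposited normalized table, with the star strands left out. They were chosen by name among the assays with values, with their levels in both groups in view, so the levels and group differences of these 3 miRNAs are given as a description, without a p-value.

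The osteoclasts came from mouse bone marrow by magnetic sorting and are labelled OSCAR+CTR+, after an immunoglobulin-like receptor and the calcitonin receptor. The 3 OCmiR-Intact samples (here Intact 1 to 3) are from control mice and the 3 OCmiR-KD samples (here KD 1 to 3) from mice whose osteoclast miRNAs were knocked down. The sources used here do not state strain, age, the allele or agent behind the knockdown or the cells in which it acts. The design text speaks of pooling equal amounts of RNA from 3 mice per group, so each sample may stand for 1 mouse or for a repeat reading of pooled RNA, and the spread may be technical. In such bulk samples, fewer cells holding a miRNA and less of it per cell cannot be told apart.

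miRNAs are short RNAs that pair with messenger RNAs, chiefly through the seed near their 5′ end, and repress them. miR-122 is by far the most abundant miRNA of hepatocytes, where it acts on cholesterol and lipid metabolism, and it passes into the blood when the liver is injured. miR-192 and miR-215 are abundant in intestinal epithelium, liver and kidney, are induced by the tumour suppressor p53, and are each made from a precursor that also carries a copy of miR-194.

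The mature strands are shown because the shared seed makes miR-192 and miR-215 a family, and because a single miR-194 assay stands for both clusters. Sequences are from RefSeq (GRCm38.p6), which matched 2 of the 3 members, miR-192 and miR-215. Bases 2 to 8, the seed, are in capitals.
miR-192: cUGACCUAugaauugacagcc
miR-215: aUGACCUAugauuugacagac
miR-194: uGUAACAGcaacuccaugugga

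miR-192 and miR-215 share the seed UGACCUA and are equal at 18 of 21 positions. The 3 differences, from miR-192 to miR-215 and counted from the 5′ end, are C1A, A12U and C20A, all outside the seed. No other assay among the 709 has this seed. The next closest assay is 9 edits from miR-192 and 8 from miR-215, so each is the nearest relative of the other on the array. Whether either primer also amplified the other family member was not tested.

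Mature miR-192 lies at chr19:6264857-6264877 on the plus strand, in a hairpin 115 bases downstream of the Mir194-2 hairpin. Both hairpins lie outside other annotated genes, between Atg2a, an autophagy gene, and the long noncoding RNA gene Gm14963. Mature miR-215 lies at chr1:185313610-185313630 on the plus strand, 195 bases downstream of the Mir194-1 hairpin and within the span of Iars2, the gene of mitochondrial isoleucyl-tRNA synthetase. The gene table gives spans only, and whether these hairpins lie in exons or introns was not analysed here. Mature miR-194 is identical from both hairpins (chr19:6264658-6264679 and chr1:185313325-185313346, plus strand). Its assay was Null in all 6 samples, in the Ct table as in the normalized table, on the plate that also held the 3 members. The partner of both measured family members thus has no reading. Null was the status of 86.6% of assays, and the sources used here do not state the rule that set it, so no limit on miR-194 follows from it.

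The prefix mmu, for mouse, is mostly left out below. A level here is minus delta Ct, the number of log2 units by which a miRNA lay above U6, the small nuclear RNA used as reference, assuming doubling in each PCR cycle. Primers differ between assays, which affects any comparison of levels across them. The knockdown values carry a limit that touches every difference below. Taken as linear multiples of U6 on plate 1, the 3 KD values of 88 of the 95 measured assays average 1 to within 0.001, while 0 of the 95 do so in OCmiR-Intact samples. All 3 members are among the 88, with KD averages of 0.9999 for miR-122, 0.9999 for miR-192 and 1.000 for miR-215. Their KD mean is therefore no free measurement. A difference between the groups restates how far the OCmiR-Intact values stand above U6, and shows no loss by itself. Each SE and 95% interval below treats the 3 KD values as free and the samples as independent. The first does not hold and the second is not known. These intervals are therefore a description and may not cover the variation between mice.

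mmu-miR-122 had a level of 7.03 in Intact 1, 6.97 in Intact 2 and 6.68 in Intact 3, against 0.82 in KD 1, -1.90 in KD 2 and -0.05 in KD 3. The OCmiR-Intact samples lay close together and the KD samples far apart, and the lowest OCmiR-Intact level stood 5.86 log2 units above the highest KD level. The means were 6.90 ± 0.19 and -0.38 ± 1.39 (SD, n = 3 each). The difference, KD minus Intact, was -7.27 log2 units (SE 0.74, 95% interval -8.98 to -5.56, limma). This equals the 155-fold excess of OCmiR-Intact over OCmiR-KD in the authors' deposited table. In cycles, the miR-122 reading crossed the threshold at a Ct of 22.3, 22.6 and 23.7 in Intact 1 to 3 and at 30.3, 32.5 and 29.4 in KD 1 to 3. Single KD samples weighed on this value, since leaving out KD 2 gave -6.51 and leaving out KD 1 gave -7.87.

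mmu-miR-192 had a level of 4.83 in Intact 1, 4.21 in Intact 2 and 3.82 in Intact 3, against 0.63 in KD 1 and -0.47 in both KD 2 and KD 3. The last 2 hold the same delta Ct to the third decimal, as KD 2 and KD 3 do in 6 of the 95 assays. The lowest OCmiR-Intact level stood 3.18 above the highest KD level. The means were 4.29 ± 0.51 and -0.10 ± 0.63 (SD, n = 3 each), a difference of -4.38 (SE 0.56, 95% interval -5.68 to -3.09, limma), or 20.9-fold in the authors' deposited table. The Ct of miR-192 was 24.5, 25.4 and 26.5 in Intact 1 to 3 and 30.5, 31.0 and 29.8 in KD 1 to 3. No single sample moved this fold by more than 1.5 times.

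mmu-miR-215 had a level of 6.60 in Intact 1, 4.71 in Intact 2 and 3.86 in Intact 3, against 0.68 in KD 1, -0.20 in KD 2 and -0.91 in KD 3. Intact 1 stood well above the other OCmiR-Intact samples, and its linear level of 97.3 times U6 compares with 26.1 and 14.5 in those. The groups did not overlap, with a gap of 3.19 log2 units. The means were 5.06 ± 1.40 and -0.14 ± 0.79 (SD, n = 3 each), a difference of -5.20 (SE 0.81, 95% interval -7.08 to -3.32, limma), or 36.8-fold in the authors' deposited table. The Ct of miR-215 was 22.7, 24.9 and 26.5 in Intact 1 to 3 and 30.4, 30.8 and 30.3 in KD 1 to 3. Leaving out Intact 1 gave -4.43, and leaving out Intact 3 gave -5.80.

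**Figure D1:**
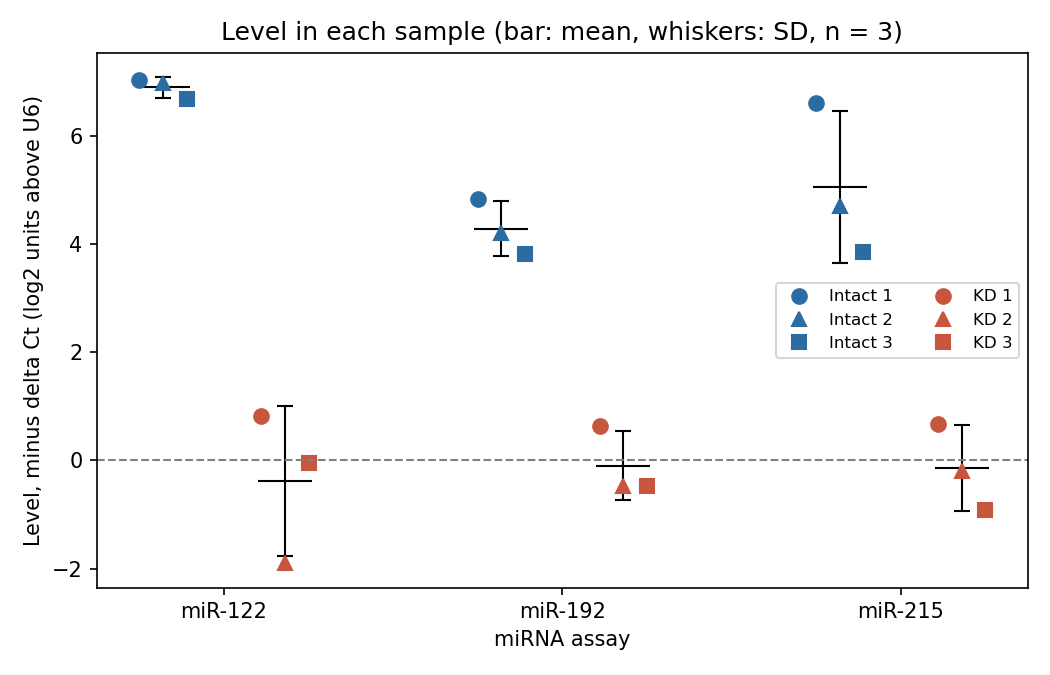
Level of miR-122, miR-192 and miR-215 (minus delta Ct, log2 units above U6, vertical axis) in each OCmiR-Intact (blue) and OCmiR-KD (red) sample, with the mean as a bar and the SD as whiskers (n = 3). The KD levels scatter around the dashed line of U6, most widely for miR-122, from -1.90 in KD 2 to 0.82 in KD 1. The OCmiR-Intact levels of miR-122 sit within 0.35 log2 units of each other while those of miR-215 span 2.74.

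All 3 members thus had every KD level below every OCmiR-Intact level, as did 82.1% of the 95 measured assays. The members were chosen with this contrast known, and nothing is read from that count. Over all 95 assays the median difference was -4.54 log2 units. The difference of miR-122 exceeded that median in size by 2.73 log2 units and that of miR-215 by 0.66, and that of miR-192 stood 0.16 above it.

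By mean level in OCmiR-Intact samples, miR-122 ranked 12 of 95, miR-215 ranked 32 and miR-192 ranked 47. This is an order of assay readings, not of abundance. Among the 3, the readings of miR-122 exceeded those of miR-192 and miR-215 in each OCmiR-Intact sample. Those of miR-215 also exceeded those of miR-192 in each, but by only 0.04 log2 units in Intact 3. The order of miR-192 and miR-215 is not settled by their spread. The neighbours of miR-122 in the order were let-7c (6.95 ± 0.21) and miR-128, a miRNA of neurons (6.84 ± 0.41; SD, n = 3 each). Those of miR-215 were miR-382 (5.14 ± 0.38) and let-7a (5.03 ± 0.11), and those of miR-192 were miR-181d (4.39 ± 0.85) and miR-185 (4.26 ± 0.43; SD, n = 3 each). Each neighbour differed from its member by less than the spread between samples.

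The members differed in how steady they were. The SD of miR-122 over the OCmiR-Intact samples ranked 81 of 95 from the widest, that of miR-192 ranked 44 and that of miR-215 ranked 12, and the median over all assays was 0.48 log2 units. In the KD samples the ranks were 22 for miR-122, 59 for miR-192 and 49 for miR-215, against a median SD of 0.80. miR-122 was therefore among the tighter assays in one group and among the wider ones in the other, while miR-215 was wide in OCmiR-Intact samples.

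Across the 95 assays, the difference followed the OCmiR-Intact level (Pearson r = -0.90 across assays, which share the samples and the reference and are no independent replicates). For the 3 members it was close to minus that level by construction. The excess over it is the mean KD level below U6, which was -0.38 for miR-122, with its wide KD values, -0.10 for miR-192 and -0.14 for miR-215.

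**Figure D2:**
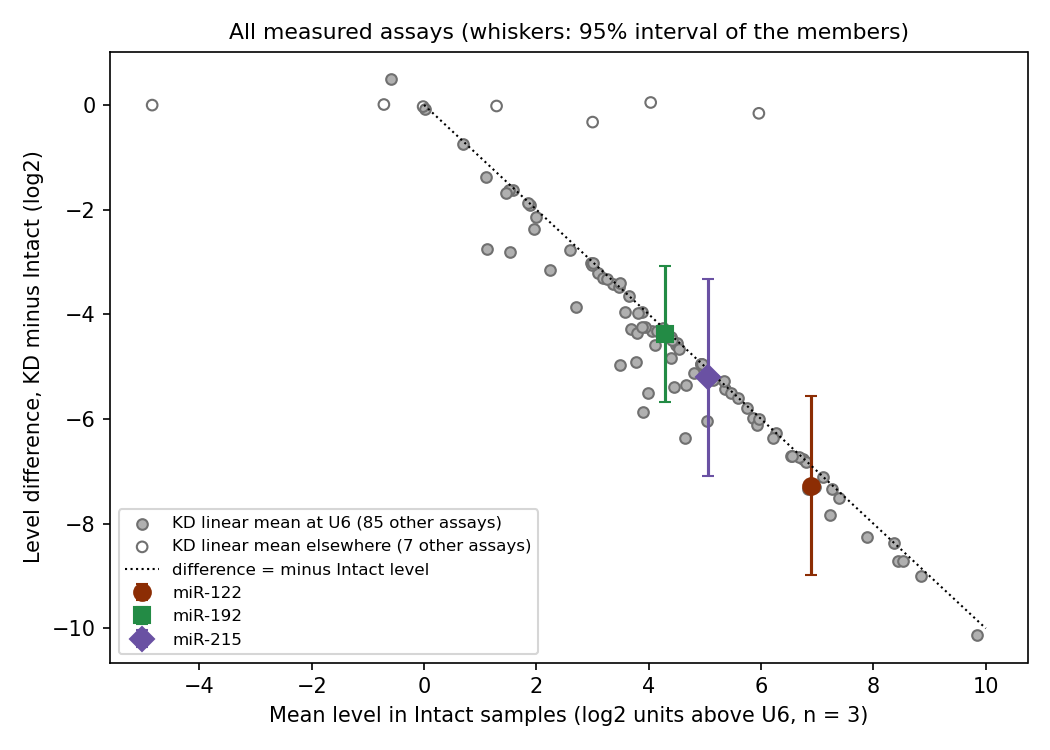
Difference in level (KD minus Intact, log2, vertical axis) against mean level in OCmiR-Intact samples (log2 units above U6, horizontal axis) for the 95 measured assays, with 95% intervals for the members. The members lie 0.10 to 0.38 below the dotted line where the difference equals minus the OCmiR-Intact level, most other assays whose KD values average 1 (filled grey) lie near it and some well below it, such as miR-142-5p with a difference of -5.86, and the 7 other assays (open) lie near 0.

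Members read in the same sample share its U6 well, so the difference of their levels does not depend on U6. miR-215 minus miR-192 was 1.78 in Intact 1, 0.49 in Intact 2 and 0.04 in Intact 3, against 0.04 in KD 1, 0.27 in KD 2 and -0.45 in KD 3. These groups overlapped, with means of 0.77 ± 0.90 and -0.05 ± 0.36 (SD, n = 3 each). Intact 1 had the widest distance between the family members, which ran from -0.45 to 0.49 in the other 5 samples. miR-122 minus miR-192 was 2.21, 2.76 and 2.87 in Intact 1 to 3 and 0.19, -1.44 and 0.42 in KD 1 to 3. Here the groups did not overlap, with a gap of 1.79 log2 units and a mean change of -2.89. With the KD averages of both assays fixed, such a mean change restates much of the distance between their OCmiR-Intact levels. miR-122 minus miR-215 was 0.43, 2.27 and 2.82 in Intact 1 to 3 and 0.14, -1.70 and 0.86 in KD 1 to 3, and these groups overlapped.

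**Figure D3:**
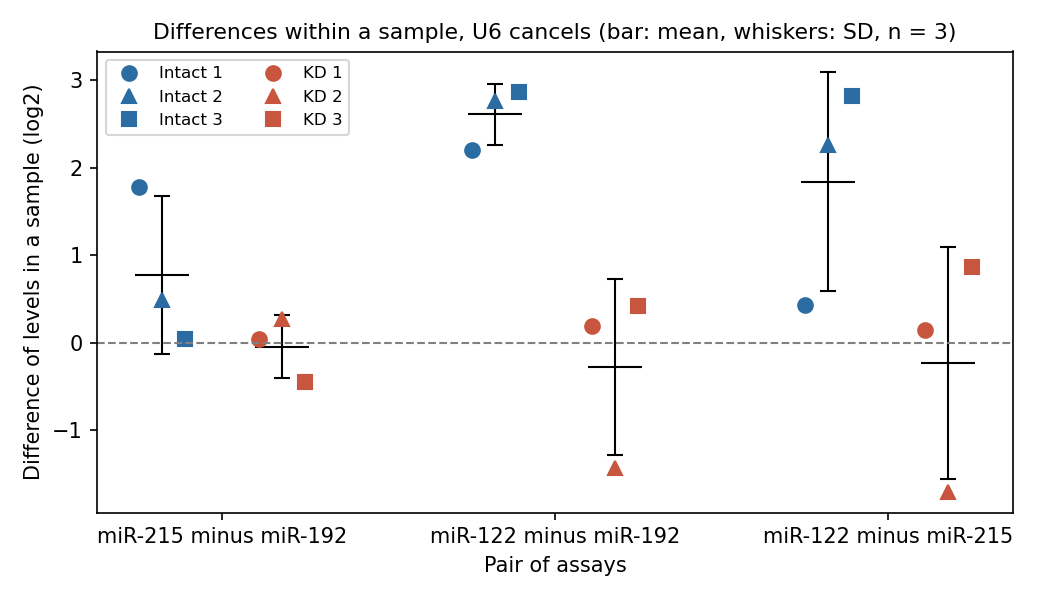
Difference of levels between members within each sample (log2, vertical axis), for OCmiR-Intact (blue) and OCmiR-KD (red) samples, with mean (bar) and SD (whiskers, n = 3). miR-122 minus miR-192 separates the groups by 1.79 log2 units, whereas the pairs with miR-215 overlap.

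The size of the members' differences depended on the reference. In another setting, the mean Ct of the 95 measured miRNAs of a sample took the place of U6. Each value was then set against the average miRNA, most of which have a fixed KD average. This shifts all differences by about the same amount. A centred difference thus largely restates how the OCmiR-Intact level stood against the average miRNA, and shows no loss by itself. On that scale miR-122 stood at 2.65, 2.80 and 2.41 in Intact 1 to 3 and at 0.99, -1.59 and 0.10 in KD 1 to 3, a difference of -2.79 (95% interval -4.43 to -1.15, limma). Its groups still did not overlap, as was so for 29.5% of the 95 assays. miR-215 stood at 2.22, 0.53 and -0.41 in Intact 1 to 3 and at 0.84, 0.11 and -0.77 in KD 1 to 3, with overlapping groups and a difference of -0.72 (95% interval -2.54 to 1.10, limma). miR-192 turned in sign, with overlapping groups and a difference of 0.10 (95% interval -1.16 to 1.36, limma). After quantile normalization the differences were -2.01 for miR-122, -0.44 for miR-215 and 0.053 for miR-192, and 0 of the 3 had groups apart, against 15.8% of all assays. Only relative to U6 or as plain Ct, then, did all 3 members stand lower in OCmiR-KD samples. The fixed KD averages hold for the Ct values set against U6. Plain Ct values of the KD samples are therefore bound by them too, and are no separate free measurement.

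**Figure D4:**
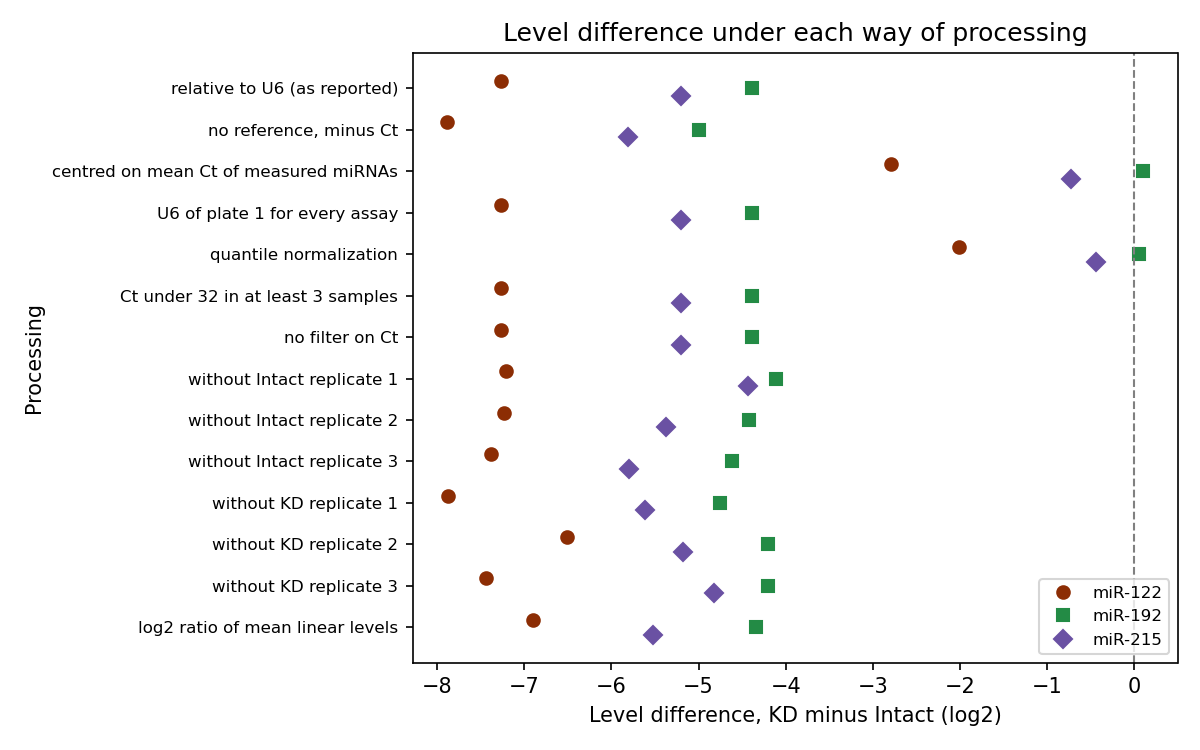
Difference in level (KD minus Intact, log2, horizontal axis) of each member under each way of processing (vertical axis). The values stay between -7.88 and -4.11 except where samples are centred on the miRNAs or quantile normalized, where miR-192 lies just above 0.

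In how they varied within the groups, miR-192 and miR-215 were more alike than either was to miR-122. Pearson correlations of deviations from the group means over the 6 samples describe this. The points share the sample, its RNA and its U6 well, and the 3 KD deviations are bound by the fixed average. The correlation was 0.885 between miR-192 and miR-215, 0.650 between miR-192 and miR-122, and 0.277 between miR-215 and miR-122. The 3 assays most like miR-192 were let-7i (0.995), miR-214 (0.932) and its relative miR-215. Those most like miR-215 were miR-214 (0.989), miR-183 (0.952) and miR-192, and those most like miR-122 were miR-340-5p (0.916), miR-200a (0.886) and let-7d* (0.869). Over the 6 levels themselves, where the gap between the groups sets most of the value, the closest were miR-340-5p, miR-22 and miR-200a for miR-122 (0.996 to 0.993), let-7i, miR-214 and miR-183 for miR-192 (0.996 to 0.995), and miR-192, miR-183 and miR-214 for miR-215 (0.983 to 0.980). By this measure miR-192 was no closer to miR-215 (0.983) than to miR-122 (0.984).

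Other miRNAs typical of liver and gut were read only in part. They were listed with earlier results of these data known, and all the measured ones have a fixed KD average. Passing the test relative to U6 therefore restates that their OCmiR-Intact readings stood above U6, and is given as a description. Of 7 miRNAs listed for liver, 3 were measured, the members miR-122 and miR-192 and also miR-148a, while miR-194, miR-101a, miR-101b and miR-802 were Null. miR-148a, abundant in hepatocytes but also in other cells, passed the test (-8.71, SE 0.80, limma adjusted p = 3.9e-05), and stood at -9.30 without Intact 3. Of 13 listed for gut epithelium, 7 were measured and 6 were Null, namely miR-194, miR-200b, miR-141, miR-429, miR-31 and miR-7b. The 5 measured ones that are no members all passed as lower in KD samples (limma, adjusted p under 0.05), as did 84.2% of all assays. They are miR-200a and miR-200c of the miR-200 family, miR-7a, a miRNA of neuroendocrine cells (-5.79, SE 0.51), miR-375, a miRNA of pancreatic islets and gut endocrine cells (-4.24, SE 0.76), and miR-378 (-2.36, SE 0.83). miR-375 stood at -3.48 without KD 3. miR-378 lost its call when any sample other than Intact 1 or KD 3 was left out, stood at -1.79 without Intact 2 and at -1.75 without KD 1, and stood at -3.06 without KD 3. The median difference of these 5 was -5.79, against -4.54 over all assays. Of 9 assays of p53-induced miRNAs, 3 were measured, miR-192, miR-215 and miR-145 (-3.97, SE 0.61, limma adjusted p = 0.00048). miR-34a, miR-34b-3p, miR-34b-5p, miR-34c, miR-107 and miR-194 were Null. Centring on the miRNAs shifts all differences by about the same amount. With fixed KD averages, a centred pass largely restates how an OCmiR-Intact reading stood against the average assay, and shows no loss by itself. So centred, miR-200a (-5.64), miR-200c (-4.23) and miR-148a (-4.23) passed as lower. Their OCmiR-Intact means were 9.84, 8.53 and 8.44, against a median of 4.3 over all assays. miR-7a stayed below 0 but did not pass (-1.31), and miR-375 (0.24), miR-378 (2.12) and miR-145 (0.51) turned to above 0 without passing. After quantile normalization miR-200a and miR-200c passed and the other 5 did not.

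The list of hepatocyte markers (miR-122, miR-192 and miR-194) gives nothing beyond the members, since its 2 measured markers are members and miR-194 is Null. Summed linear levels of the markers of other cell types were lower in OCmiR-KD than in OCmiR-Intact samples for each list, and their part in the members' values was not tested. Of 8 epithelial markers, 5 were measured, with sums of 1171 to 1839 times U6 in OCmiR-Intact and of 4.00 to 6.11 in OCmiR-KD samples, and miR-200b, miR-141 and miR-429 were Null. Of 8 myeloid markers, which osteoclasts should carry, 5 were measured, with sums of 184 to 367 and of 2.62 to 9.34, and miR-142-3p, miR-146a and miR-155 were Null. The sums were 222.6 to 430.3 and 3.55 to 4.61 for 4 of 5 stromal markers (miR-199a-5p Null), 37.8 to 48.1 and 2.17 to 3.84 for 3 of 4 lymphoid markers (miR-181b Null), and 14.9 to 17.2 and 1.44 to 5.02 for 3 of 3 erythroid markers. The stromal marker miR-199a-3p had the same OCmiR-Intact mean (4.93) and difference (-4.95) as another measured assay. Whether it is a separate reading is not known. Single markers did not all follow their sum, as the groups overlapped for 1 erythroid marker, miR-486, with a difference of 0.49, and for 1 lymphoid marker, miR-181a. Such sums add assays with different primers. All the measured markers also have a fixed KD average, so the KD sums are no free measurement. A lower KD sum restates how far the OCmiR-Intact readings stand above U6, and shows no loss by itself. The sort markers OSCAR and CTR are proteins and could not be checked on a miRNA array.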

How the data were processed

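miRNAs were measured in 3 OCmiR-Intact and 3 OCmiR-KD samples by SYBR Green PCR of 40 cycles after QuantiMir reverse transcription, per the labels' protocols. The authors deposited Ct values in cycles, log2 delta Ct values (Ct minus that of U6) and a table of fold ratios, intact over knockdown. Ct minus delta Ct was checked to be constant per sample and plate. The sources used here do not state the Ct threshold or the rule for Null. Well IDs of plate row E, turned into numbers in the file, were restored. A PCR array has no read depth, and the number of samples limits the precision (median residual SD 0.82 log2 units).

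Assays with a Ct under 35 in at least 3 samples (all 95 with values) were fitted together with limma 3.58.1 in R 4.3.3 (lmFit, eBayes without trend, no covariate), Benjamini-Hochberg adjusted over the 95 with a threshold of 0.05. The fit was tested on simulated data with independent noise, equal in both groups, and no fixed KD average. That test therefore does not cover the fixed KD averages of these data. Correlations and sums were computed in Python 3.11.15. Members and lists were chosen with earlier results of these data known. Named miRNAs are the members, their cluster partners, their neighbours by OCmiR-Intact level, the 3 most correlated assays each, and the listed miRNAs. The alternatives were other references, quantile normalization, other Ct limits, linear averaging, a replicate block and leaving out each sample.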

Additional observations from a re-analysis of the deposited data

How the results depend on the processing

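The members' differences (KD minus Intact, log2) kept their sign under each setting tried, with 1 exception: for miR-192 it was 0.10 when samples were centred on the mean Ct of the miRNAs and 0.053 after quantile normalization, where the reference itself takes up the mean change. Those settings gave -2.79 and -2.01 for miR-122 and -0.72 and -0.44 for miR-215, and cut the assays called lower from 80 to 19 and 5 and those with groups apart from 78 to 28 and 15. Without any reference miR-192 stood at -4.99. Leaving out 1 sample gave -7.87 to -6.51 for miR-122, -4.75 to -4.11 for miR-192 and -5.80 to -4.43 for miR-215, with 75 to 81 assays called lower and 78 to 83 with groups apart. Averaging on the linear scale gave -6.90, -4.35 and -5.52. With the KD linear averages fixed at 1, these values restate the linear OCmiR-Intact means of 119.8, 20.3 and 46.0 times U6. Their sign is therefore no separate check. Deviations of samples with equal replicate numbers were barely correlated (0.02, 0.10 and 0.08 over the 95 assays). With the KD averages fixed in most assays, this cannot show whether the samples were paired. With the replicate block, 82 assays were called lower, and the members' differences were -7.27 (SE 0.73), -4.38 (SE 0.62) and -5.20 (SE 0.64). The precision is limited by 3 samples per group.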

Other observations

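Among 15 miRNAs typical of muscle, heart, brain, pancreas or stratified epithelium, 5 were measured and 10 were Null. These too were listed with earlier results known, and the measured ones have a fixed KD average. A pass relative to U6 therefore restates that OCmiR-Intact readings stood above U6. Of the 5, miR-1, miR-128, miR-375 and miR-205 passed as lower in OCmiR-KD samples (limma, adjusted p under 0.05, as did 84.2% of all assays). miR-205, a miRNA of stratified epithelia, had a level of 4.40 ± 1.21 in OCmiR-Intact and -0.44 ± 1.60 in OCmiR-KD samples (SD, n = 3 each), a difference of -4.84 (SE 0.95), or -4.19 without Intact 1 and -3.92 without KD 1. The muscle miRNA miR-206 had a difference of -1.63 (SE 0.86, limma adjusted p = 0.11) and did not pass, though it did without Intact 2 (-2.55, limma adjusted p = 0.011). Centred on the mean of the miRNAs, miR-128 still passed as lower (-2.85), miR-205 lost its call (-0.36), miR-1 (0.17) and miR-375 (0.24) turned to above 0 without passing, and miR-206 turned and passed as higher (2.85, limma adjusted p = 0.028). Centring shifts all differences by about the same amount. With fixed KD averages, a centred call largely restates whether an OCmiR-Intact reading stood above or below the average assay. The OCmiR-Intact means were 6.84 for miR-128 and 1.52 for miR-206, against a median of 4.3 over all assays. Such a call shows no loss or rise by itself. After quantile normalization none of these 5 passed. The cardiac and skeletal muscle miRNAs miR-133a, miR-133b, miR-208a, miR-208b and miR-499, the brain miRNAs miR-124 and miR-9, and the pancreatic miRNAs miR-216a, miR-216b and miR-217 were all Null. In OCmiR-Intact samples, the mean reading of miR-122 (6.90) differed from that of miR-128 (6.84) by less than their spread.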
